A study of Mus musculus with 16 samples.

Results

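The genes described here are the osteoclast's acid-secretion machinery: the vacuolar proton pump subunits Atp6v0d2, Atp6v0d1, Tcirg1, Atp6v1a, Atp6v1b2 and Atp6v1c1, the chloride transporter Clcn7 with its partner Ostm1, the carbonic anhydrase Car2 and the anion exchanger Slc4a2. They were chosen by name, and every probe set whose platform symbol was one of these 10 genes was taken: 19 probe sets of the 45101 on the Affymetrix array, among 18193 genes with a symbol of their own. All 10 genes passed the filter on low signals, as did 18 of the 19 probe sets. The exception was 1446465_at of Atp6v1b2. Where 1 value per gene is given, it is from the probe set with the highest mean log2 signal.

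The mice were female C57BL/6, wild type or carrying an osteoclast-specific knockout of estrogen receptor alpha (Esr1), 8 of each genotype, and all were ovariectomized, controls included. Within each genotype 4 mice received vehicle (WT-OVX and ERaKO-OVX) and 4 received estrogen (WT-E2-4hr and ERaKO-E2-4hr). The distal 5 mm of the left femur was taken 4 h later, and each mouse gave its own array without pooling. The sources used here do not give the Cre driver, the estrogen compound, its dose or the ages, and the knockout was designed for osteoclasts only, so other cells of the bone are meant to keep the receptor. For the knockout controls the vehicle is named in the study's design text but not in their own labels. The tissue is whole distal femur with its marrow, so a lower number of osteoclasts and less RNA per osteoclast cannot be told apart. A difference was tested with limma on log2(signal + 16) and called at an adjusted p (Benjamini-Hochberg over 12735 genes) under 0.05; the p-values measure the spread between mice.

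Osteoclasts dissolve bone mineral by pumping acid into a sealed space beneath the cell. Carbonic anhydrase II (Car2) makes protons and bicarbonate from carbon dioxide and water; the vacuolar ATPase at the ruffled border moves the protons out, with its V1 sector splitting ATP and its membrane V0 sector carrying the protons. The chloride-proton exchanger ClC-7 (Clcn7), held stable by Ostm1, supplies chloride, and the exchanger AE2 (Slc4a2) removes bicarbonate at the opposite side of the cell. Loss of Tcirg1, Clcn7, Ostm1 or Car2 causes osteopetrosis in people, in which bone is not resorbed.

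The promoters of 6 of the 10 genes were in the RefSeq table used here (build GRCm38.p6), with 10 start sites between them; Atp6v0d2, Atp6v1b2, Atp6v1c1 and Car2 were not matched. The 250 bases before each start were searched on both strands for the E-box CACGTG, its longer form TCACGTGA, which contains the former and is the letter pattern of the lysosomal regulators of the MiT family, the AP-1 pattern TGANTCA and the estrogen response element GGTCANNNTGACC. Among all 32851 promoters of that length these letters were found in 6.02%, 0.785%, 6.75% and 0.0639% respectively. Of the 10 member promoters, that of Atp6v1a held TCACGTGA, 124 bases before its start (chr16:44139373-44139402, minus strand), and the first promoter of Clcn7 held CACGTG, 9 bases before its start (chr17:25133361-25133390, plus strand). The other 8 held none of these letters in the window. The 30-base stretches around both matches are shown because they carry the matches, with the matched letters in capitals.
Atp6v1a: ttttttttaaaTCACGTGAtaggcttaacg
Clcn7: gcctccgtcgtcagtCACGTGggcaccgat
For comparison, the 250 bases before the start are shown for Tcirg1 (its first listed start, chr19:3907134-3907383, minus strand, 58% G and C), Ostm1 (chr10:42678666-42678915, plus strand, 65.2% G and C) and Atp6v0d1 (chr8:105566065-105566314, minus strand, 60.4% G and C). The former pair passed the test between the replicate sets described below and Atp6v0d1 did not; none of the 3 held a searched pattern.
Tcirg1: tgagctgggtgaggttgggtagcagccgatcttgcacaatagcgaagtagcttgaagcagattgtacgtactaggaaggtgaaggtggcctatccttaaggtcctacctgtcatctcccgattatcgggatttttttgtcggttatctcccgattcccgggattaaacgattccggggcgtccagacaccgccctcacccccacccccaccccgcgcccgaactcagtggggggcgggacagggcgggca
Ostm1: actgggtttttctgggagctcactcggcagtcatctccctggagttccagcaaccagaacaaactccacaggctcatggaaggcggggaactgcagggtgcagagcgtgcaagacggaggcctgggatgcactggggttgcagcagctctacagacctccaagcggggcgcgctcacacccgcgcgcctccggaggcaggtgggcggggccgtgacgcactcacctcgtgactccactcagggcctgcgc
Atp6v0d1: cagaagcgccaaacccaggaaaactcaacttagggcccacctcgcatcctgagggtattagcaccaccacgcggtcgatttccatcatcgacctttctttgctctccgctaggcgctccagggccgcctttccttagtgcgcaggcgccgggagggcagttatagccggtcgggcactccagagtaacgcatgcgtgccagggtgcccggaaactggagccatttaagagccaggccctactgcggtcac

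Across the series each array had a 2% trimmed mean signal of 500, with median signals of 153.2 to 216.6. The replicate numbers in the titles divided the arrays: replicates 1 and 2 of every group had an 18S rRNA control signal of 15614 to 30651, against 842 to 9158 in replicates 3 and 4, and Actb 3' to 5' ratios of 1.244 to 3.531 against 1.168 to 1.247. Replicates 1 and 2 had a summed signal over 16 skeletal muscle markers of 102804 to 815833, and the later numbers one of 4588 to 43096. The labels do not say what separates the numbers. The 3 highest spike-in control signals were those of replicate 2 of both wild-type groups and replicate 1 of the knockout estrogen group. The same 3 arrays had the highest Actb 3' to 5' ratios, 3.531 (vehicle) and 2.439 (estrogen) in wild type and 2.067 in knockout. The other arrays of replicates 1 and 2 had ratios of 1.244 to 1.5. Signal of Esr1, the targeted gene, was 944.7 ± 137.5 in wild-type vehicle and 636.6 ± 60.9 in knockout vehicle (mean ± SD, n = 4), a log2 difference of -0.55 ± 0.19 (SE; limma adjusted p = 0.952); after estrogen the difference was 0.072 (adjusted p = 0.983). In whole bone this does not check the deletion in osteoclasts. Osteoclast markers such as Ctsk, the collagen-degrading protease, were measured on every array. The lowest single signal among the 16 osteoclast list genes was 53.3, below the 109.1 used as the filter on mean signal. No gene of any list had a value of 0 on an array, so values above 0 do not show detection.

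No acid-secretion gene passed the test 4 h after estrogen in either genotype. In wild-type bone 0 of the 10 genes were called, where 0% of all 12735 genes were called; at an unadjusted p under 0.05 the numbers were 0 of 10 and 1107 (8.69%). In knockout bone 0 of 10 were called, again against 0% of all genes, with 0 of 10 and 624 (4.9%) at the unadjusted threshold. The median log2 difference of the 10 genes was 0.076 in wild type and 0.12 in knockout, beside -0.014 and 0.0077 over all genes tested. The intervals given with each gene come from the fit of the 4 groups, whose error includes the difference between the replicate sets; intervals from a fit with a term for the set follow after the single genes.

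In the membrane V0 sector, Atp6v0d2 codes for the d2 subunit, the d form enriched in osteoclasts and tied to the fusion of their precursors. Its signal in replicates 1 to 4 was 894, 692, 2611 and 2447 in wild-type vehicle, 809, 555, 1766 and 1772 in wild-type estrogen, 649, 768, 2271 and 1884 in knockout vehicle and 432, 980.5, 3109 and 2281 in knockout estrogen. In every group both arrays of replicates 3 and 4 were higher than both of replicates 1 and 2, and the 4 groups overlapped. The log2 difference, estrogen minus vehicle, was -0.37 ± 0.62 (SE) in wild type, with a 95% interval of -1.67 to 0.93 (limma adjusted p = 0.906), and 0.12 ± 0.62 in knockout, with an interval of -1.18 to 1.43 (adjusted p = 0.994). Within replicates 1 and 2 alone the difference was -0.23 in wild type and -0.11 in knockout, and within replicates 3 and 4 it was -0.51 and 0.36. The wild-type value was -0.051 without wild-type estrogen replicate 2 and -1.17 with array weights.

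Atp6v0d1 codes for the d1 subunit, the form found in most cells. It gave signals of 3596, 2795, 3646 and 3840.1 in wild-type vehicle, 3789, 4344, 5047 and 4366 in wild-type estrogen, 3726, 3633, 3454 and 3623 in knockout vehicle and 2475, 3187, 3687 and 4576 in knockout estrogen. In wild type 3 of the 4 estrogen arrays lay above all vehicle arrays, and in knockout the estrogen arrays lay on both sides of the vehicle arrays. Of the 10 genes Atp6v0d1 had the lowest unadjusted p for estrogen in wild type: the log2 difference was 0.34 ± 0.17, interval -0.016 to 0.70, unadjusted p = 0.06 and adjusted p = 0.591 by limma. The within-set values were 0.35 and 0.33. In knockout it was -0.087 ± 0.17 (adjusted p = 0.985), with -0.39 in replicates 1 and 2 and 0.21 in replicates 3 and 4. When a term for the replicate set entered the limma fit, the standard error in wild type fell to 0.15 and the unadjusted p to 0.034, and the adjusted p was 0.354; under that fit 1596 genes (12.5%) had an unadjusted p under 0.05.

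Tcirg1 codes for the a3 subunit of the V0 sector, the form that takes the pump to the ruffled border. Its signals were 1675, 1478, 2739 and 2549.6 in wild-type vehicle, 2223, 2392, 3891 and 2240.4 in wild-type estrogen, 1866, 1765, 2239 and 2051 in knockout vehicle and 1403, 2072, 2668 and 2730.2 in knockout estrogen. One array, wild-type estrogen replicate 3, stood above all others, and the groups overlapped. The estrogen difference was 0.35 ± 0.25 in wild type (-0.17 to 0.87, limma adjusted p = 0.726) and 0.12 ± 0.25 in knockout (adjusted p = 0.985). Within the replicate sets it was 0.55 and 0.16 in wild type and -0.089 and 0.33 in knockout.

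**Figure D1:**
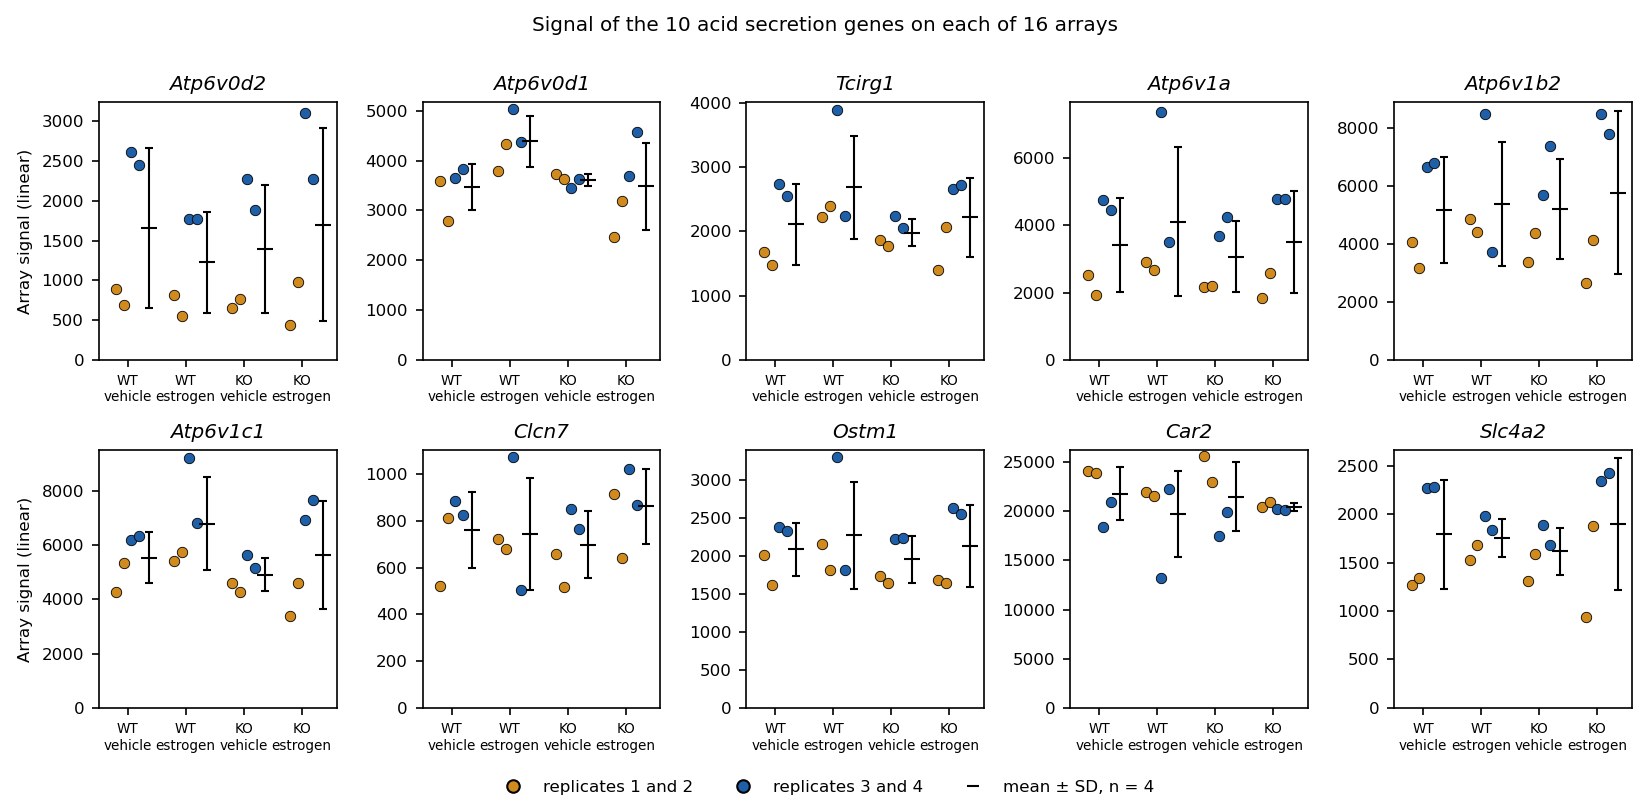
Linear signal of each of the 10 genes on each of the 16 arrays, 1 panel per gene, by group on the horizontal axis; orange points are replicates 1 and 2, blue points replicates 3 and 4, and black marks the mean ± SD of 4 arrays. Every blue point for Atp6v0d2 lies at 1766 or above and every orange point at 980.5 or below, while each estrogen group overlaps its vehicle group in all 10 panels.

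Among the V1 subunits, Atp6v1a codes for the catalytic A subunit that splits ATP. It gave 2513, 1936, 4768 and 4463 in wild-type vehicle, 2903, 2662, 7393 and 3501 in wild-type estrogen, 2167, 2187, 3691 and 4241 in knockout vehicle and 1843, 2572, 4780.4 and 4795 in knockout estrogen, so here too replicates 3 and 4 were the higher pair in each group. The estrogen difference was 0.24 ± 0.39 in wild type (-0.59 to 1.06, limma adjusted p = 0.905) and 0.14 ± 0.39 in knockout (adjusted p = 0.99). For Atp6v1b2, the B2 subunit that pairs with A, signals over the 16 arrays ranged from 2639.7 to 8503, and the estrogen differences were 0.059 ± 0.37 and 0.055 ± 0.37 in wild type and knockout (adjusted p = 0.98 and 0.994). Quantile normalization turned the wild-type value of Atp6v1b2 to -0.022. For Atp6v1c1, a stalk subunit that helps hold V1 to V0, signals ranged from 3386 to 9210.2, with differences of 0.28 ± 0.24 and 0.13 ± 0.24 (adjusted p = 0.792 and 0.985).

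On the chloride side, Clcn7 gave 523, 812, 883 and 824 in wild-type vehicle, 722, 679, 1073 and 503 in wild-type estrogen, 658, 516, 852 and 766 in knockout vehicle and 916, 640.5, 1024 and 868 in knockout estrogen. The lowest array was wild-type estrogen replicate 4 and the highest wild-type estrogen replicate 3. Its estrogen difference was -0.055 ± 0.23 in wild type (-0.55 to 0.44, limma adjusted p = 0.972) and 0.30 ± 0.23 in knockout (-0.19 to 0.80, adjusted p = 0.981). Ostm1, the subunit without which ClC-7 is degraded, had signals of 1625 to 3307 and differences of 0.093 ± 0.22 and 0.10 ± 0.22 (adjusted p = 0.942 and 0.986).

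At the supply of protons and the exit of bicarbonate, Car2 is made by osteoclasts and also by red cell precursors. It gave 24072, 23851, 18380.5 and 20947 in wild-type vehicle, 21974, 21594, 13207 and 22284 in wild-type estrogen, 25586, 22955, 17532 and 19939 in knockout vehicle and 20462, 20985, 20227 and 20087 in knockout estrogen. Wild-type estrogen replicate 3, the highest array for Tcirg1, was the lowest for Car2. The estrogen difference was -0.17 ± 0.19 in wild type (-0.56 to 0.23, limma adjusted p = 0.852) and -0.059 ± 0.19 in knockout (adjusted p = 0.99). Slc4a2 had signals of 939.6 to 2424 and differences of 0.019 ± 0.27 and 0.15 ± 0.27 (adjusted p = 0.992 and 0.985); the wild-type value was -0.0044 after quantile normalization.

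**Figure D2:**
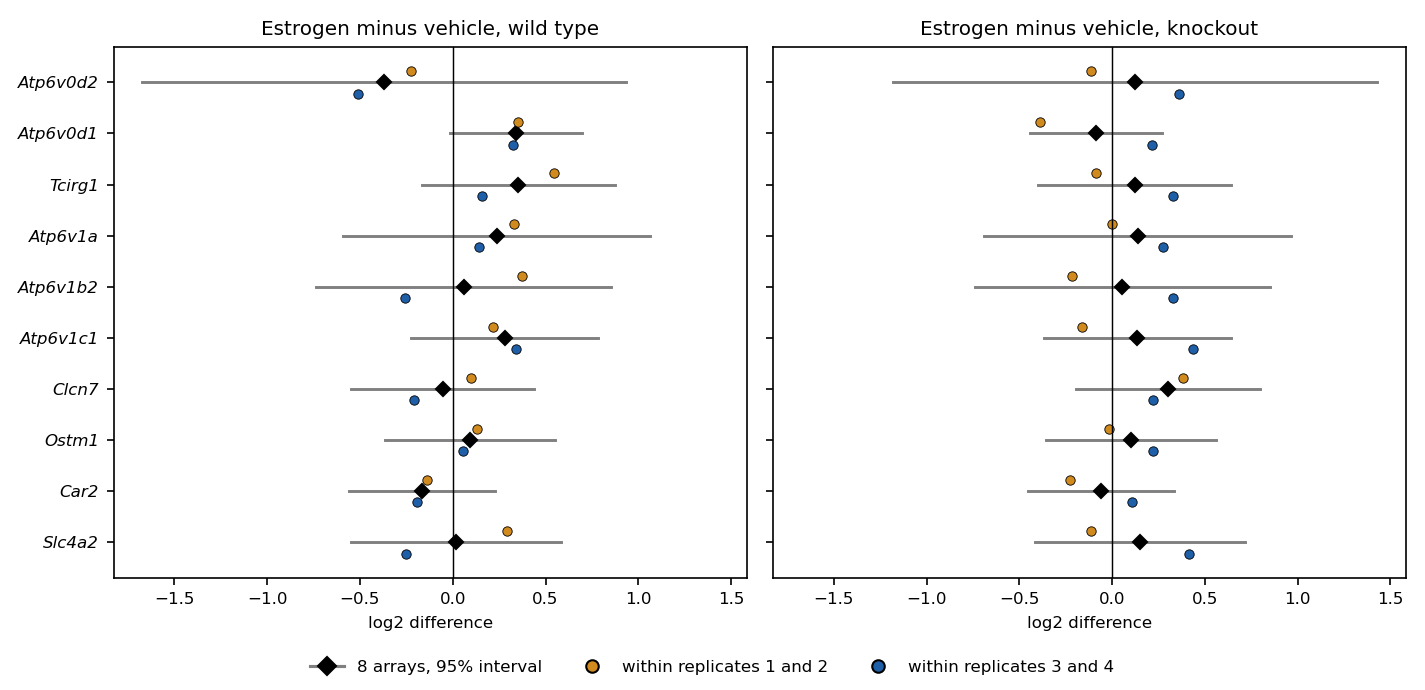
Log2 difference, estrogen minus vehicle, for each gene in wild type and in knockout; diamonds are the differences with their 95% interval from 4 against 4 arrays, and small dots the differences within replicates 1 and 2 and within replicates 3 and 4. All of these intervals include 0, and Atp6v0d2 has the widest, -1.67 to 0.93 in wild type.

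A term for the replicate set left each estrogen difference as it was and narrowed its interval. For Atp6v0d2 the standard error went from 0.62 to 0.22, and the 95% intervals became -0.83 to 0.090 in wild type and -0.33 to 0.58 in knockout. In wild type they were 0.029 to 0.65 for Atp6v0d1, the one interval of these that left out 0, -0.011 to 0.72 for Tcirg1, -0.16 to 0.63 for Atp6v1a, -0.45 to 0.57 for Atp6v1b2 and -0.048 to 0.61 for Atp6v1c1. The chloride pair had -0.50 to 0.39 (Clcn7) and -0.24 to 0.42 (Ostm1), and the acid supply and bicarbonate exit -0.50 to 0.17 (Car2) and -0.38 to 0.41 (Slc4a2). In knockout the intervals were -0.40 to 0.22 for Atp6v0d1, -0.24 to 0.49 for Tcirg1, -0.26 to 0.53 for Atp6v1a, -0.46 to 0.57 for Atp6v1b2 and -0.19 to 0.46 for Atp6v1c1. Clcn7 had -0.14 to 0.74, Ostm1 -0.23 to 0.43, Car2 -0.39 to 0.27 and Slc4a2 -0.25 to 0.55, so that all intervals in knockout included 0. In limma with this term 0 of the 10 genes were called in either genotype, beside 5 of all genes tested in wild type and 1 in knockout.

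None of the 10 genes passed the test between the genotypes either. Under vehicle 0 of the 10 genes were called between knockout and wild type (0% of all genes; unadjusted, 0 of 10 and 3.6%), with log2 differences of -0.22 to 0.067 and a median of -0.097, beside 0.0026 over all genes. Of the V0 genes Atp6v0d2 was at -0.22 ± 0.62, Atp6v0d1 at 0.067 ± 0.17 and Tcirg1 at -0.048 ± 0.25. After estrogen 0 were again called (0% of all genes), and 1 of 10, Atp6v0d1, had an unadjusted p under 0.05, as did 6.75% of all genes: knockout minus wild type was -0.36 ± 0.17 (unadjusted p = 0.0478, limma adjusted p = 0.733). The other 9 ranged from -0.31 ± 0.24 for Atp6v1c1 to 0.27 ± 0.62 for Atp6v0d2, and Tcirg1 was at -0.28 ± 0.25. These comparisons share samples with the estrogen comparisons. The test of the difference between responses, knockout minus wild type, called 0 of the 10 (0% of all genes; unadjusted, 0 of 10 and 7.62%). Its extremes among the 10 were -0.43 ± 0.24 for Atp6v0d1 (limma adjusted p = 0.688) and 0.49 ± 0.87 for Atp6v0d2 (adjusted p = 0.899), and Tcirg1 was at -0.23 ± 0.35 (adjusted p = 0.878). The Atp6v0d2 value was 0.086 without knockout estrogen replicate 3 and 1.81 with array weights. Other probe sets gave unlike values for some genes. For Atp6v0d2, 1434798_at gave -0.21 ± 0.52 for estrogen in knockout, against 0.12, and -0.020 ± 0.74 between responses. For Clcn7, 1450408_at gave 0.26 ± 0.30 for estrogen in wild type, against -0.055, and 0.015 ± 0.42 between responses, against 0.36. In each estrogen and genotype comparison 0 of the 18 member probe sets above the filter were called, where 0% of 26677 were.

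Most of the acid-secretion genes differed by replicate number. With the groups as a term, 7 of the 10 genes were called higher in replicates 3 and 4 than in replicates 1 and 2 and 0 lower, where 8.93% of all genes were called higher, 9.01% lower and 17.9% in either direction. For this comparison rose and fell mean higher and lower in replicates 3 and 4, with no order among the mice. They were the pump genes Atp6v0d2, Atp6v1a, Atp6v1b2, Atp6v1c1 and Tcirg1, the exchanger Slc4a2 and the ClC-7 partner Ostm1. The median log2 difference of the 10 was 0.51, beside 0.027 over all genes (0.050 after quantile normalization). The split follows the replicate numbers but was chosen because earlier work on these data had shown that these arrays differ, so the p-values describe these arrays.

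Atp6v0d2 differed most of the 10 genes. Its signal was 432 to 980.5 (median 730.3) over the 8 arrays of replicates 1 and 2 and 1766 to 3109 (median 2276) over the 8 of replicates 3 and 4, with no overlap. The log2 difference was 1.64 ± 0.15, or 3.12-fold (limma adjusted p = 2e-06), and within the 4 groups it ranged from 1.38 to 2.00. Atp6v1a also did not overlap, at 1843 to 2903 against 3501 to 7393, a difference of 0.98 ± 0.13 (1.97-fold, adjusted p = 9.87e-05). Thus, by the probe set used for each gene, 2 of the 10 genes lay wholly higher in replicates 3 and 4 and 0 wholly lower, where 1.33% and 2.21% of all genes tested did. The other called genes overlapped between sets by that probe set. Other probe sets of Atp6v1c1 (1419544_at and 1419546_at), Atp6v1b2 (1419883_s_at) and Clcn7 (1450408_at) also lay wholly higher in replicates 3 and 4. Those that overlapped were 1446465_at and 1449649_at of Atp6v1b2 and 1425821_at of Clcn7. The share over all probe sets was not counted.

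Among the other called genes, Atp6v1b2 ranged over 2639.7 to 4874 and 3724 to 8503 by the probe set used, a difference of 0.81 ± 0.17 (limma adjusted p = 0.00482). Slc4a2 rose by 0.54 ± 0.13 (adjusted p = 0.0102) and Atp6v1c1 by 0.51 ± 0.11 (adjusted p = 0.00482). Tcirg1 rose by 0.50 ± 0.12 (adjusted p = 0.0106) and Ostm1 by 0.43 ± 0.11 (adjusted p = 0.0148). Each of the 7 was higher in replicates 3 and 4 in 4 of 4 groups.

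The remaining 3 genes were not called. Clcn7 gave 0.30 ± 0.15 (limma adjusted p = 0.169), higher in 4 of 4 groups, and the ubiquitous pump subunit Atp6v0d1 gave 0.23 ± 0.10 (adjusted p = 0.129), higher in 3 of 4. Car2 gave -0.26 ± 0.11 (adjusted p = 0.113) and was lower in replicates 3 and 4 in 4 of 4 groups as deposited, but 0.13 higher after quantile normalization. Single arrays and settings moved these calls. Without wild-type estrogen replicate 4, Clcn7 at 0.42 (adjusted p = 0.0228) and Car2 at -0.32 (adjusted p = 0.0405) were called as well, and after quantile normalization Atp6v0d1 at 0.31 (adjusted p = 0.0293). Without the 3 arrays whose spike-in controls were high, 5 of the 10 were called where 9.82% of all genes were, and Tcirg1 at 0.40 (adjusted p = 0.0547) and Ostm1 at 0.37 (adjusted p = 0.0861) were not.

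**Figure D3:**
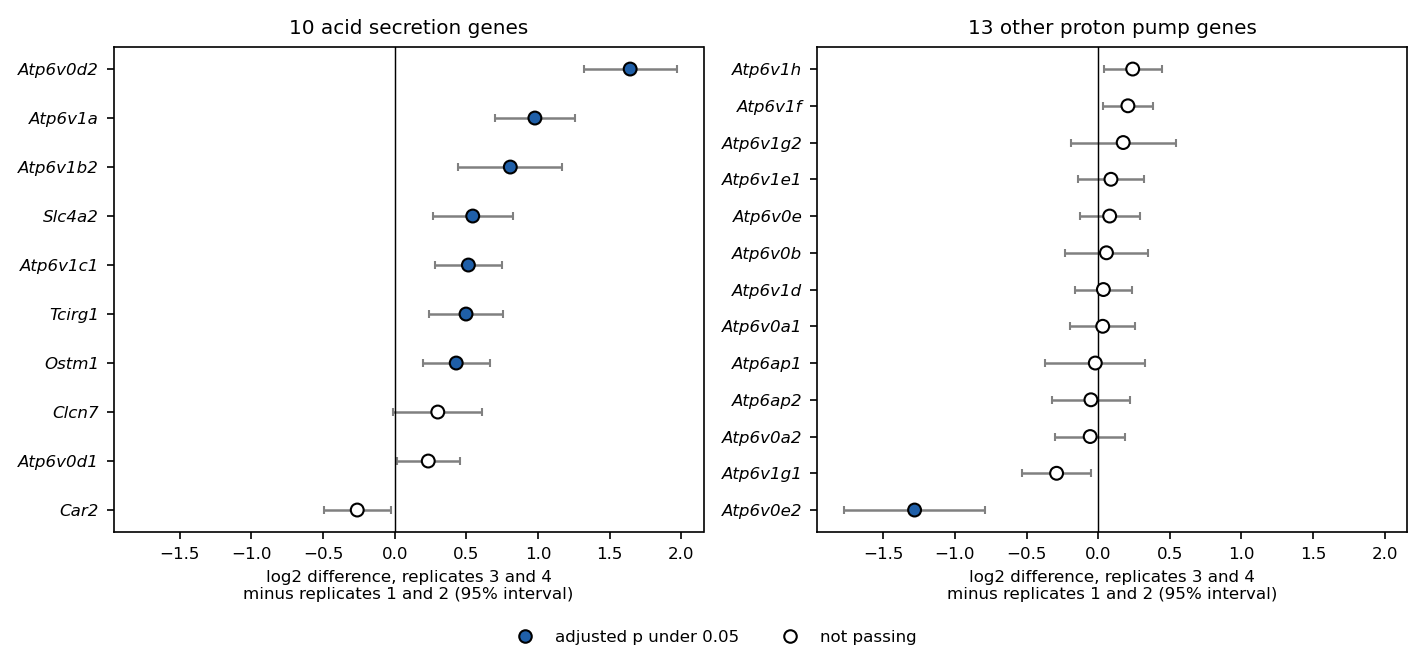
Log2 difference, replicates 3 and 4 minus replicates 1 and 2, with 95% intervals, for the 10 acid-secretion genes on the left and the 13 other proton pump genes tested on the right; filled points have an adjusted p under 0.05. On the left 7 points are filled, all above 0, with Atp6v0d2 at 1.64, and on the right only Atp6v0e2 is filled, at -1.28.

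Most genes with more than 1 probe set gave like values between the sets. Of the 18 probe sets above the filter 13 were called, beside 19.3% of 26677 probe sets over the array. The second probe set of Atp6v0d2, 1434798_at, gave 1.32 ± 0.17 (limma adjusted p = 9.68e-05) and that of Atp6v1a, 1450634_at, 0.91 ± 0.13 (adjusted p = 0.00026). The other probe sets of Atp6v1c1 gave 0.42 ± 0.090 (1419544_at) and 0.53 ± 0.12 (1419546_at). Clcn7 and Atp6v1b2 had probe sets that disagreed. For Clcn7, 1450408_at gave 0.63 ± 0.14 (adjusted p = 0.00645) and was called, while 1425821_at at 0.58 ± 0.21 (adjusted p = 0.0635) and the probe set used here, 1452702_at at 0.30 ± 0.15, were not. For Atp6v1b2, 1419883_s_at gave 0.86 ± 0.14 (adjusted p = 0.00078) and 1449649_at gave -0.31 ± 0.33 (adjusted p = 0.542).

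Lists of marker genes were compared between the same arrays, where 8.93% of all genes were called higher and 9.01% lower. All 16 skeletal muscle genes tested fell in replicates 3 and 4, and their median difference was -4.18 on the log2 scale. The 16 osteoclast genes, which include Ctsk, rose in 7 cases and fell in 0 (median 0.46; 9 rose after quantile normalization), and their summed signal was 27439 to 48304 against 50063 to 72211. Those with the largest differences were Ocstamp, needed for precursor fusion, at 1.59 ± 0.24, the receptor Oscar at 1.25 ± 0.20, the calcitonin receptor Calcr at 1.19 ± 0.23 and Ctsk at 1.06 ± 0.15, 3295 to 8327 in signal against 7226 to 13852 (limma adjusted p = 0.000155). Of the 12 erythroid genes 12 were lower, as they were after quantile normalization, 1 of them called (0 after quantile normalization), with a median of -0.37 and summed signals of 69927 to 112985 against 40586 to 89604; the called gene was the transferrin receptor Tfrc, whose call was lost in 8 of 16 fits that left out 1 array. The 11 monocyte and macrophage genes tested gave 2 that rose, Cd68 and Fcgr1, and 2 that fell, Adgre1 and Lyz2. After quantile normalization 4 rose and 1 fell, and Lyz2 was 0.11 higher. Each of the latter pair lost its call in 12 of 16 fits that left out 1 array, and without the 3 arrays whose spike-in controls were high 0 of the 11 were called. Of 11 osteoblast and osteocyte genes 4 rose, Phex, Sp7, Alpl and Ibsp, and 1 fell, Col1a2, which was 0.14 higher after quantile normalization. Without the 3 arrays of high spike-in controls, 7 osteoclast genes rose and 0 fell, 0 erythroid genes rose and 2 fell, and 2 osteoblast and osteocyte genes rose and 1 fell. The muscle marker signal and the 18S signal were lower in replicates 3 and 4, where most acid-secretion genes were higher. The Actb ratio was also lower there, with ranges that overlapped slightly. What part these 3 measures have in the differences was not tested.

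Of the other 13 pump genes tested, subunits and accessory proteins, 0 rose and 1 fell, beside 8.93% and 9.01% of all genes, and their median difference was 0.036 (0.13 after quantile normalization, with Atp6v1f called at 0.30, adjusted p = 0.0186). The one that fell was Atp6v0e2, a form of the small V0 e subunit, at -1.28 ± 0.23 (limma adjusted p = 0.00155), 137 to 594 in signal against 58.7 to 108, without overlap. Next in size were the V1 subunit genes Atp6v1g1 at -0.29, Atp6v1h at 0.24 and Atp6v1f at 0.21, none of them called. These lists, like the members, were chosen with results of these data known.

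Of 14 tested chloride, bicarbonate, sodium-proton and carbonic anhydrase genes other than the members, 1 rose and 3 fell, beside 8.93% and 9.01% of all genes. Their median was -0.0052, and after quantile normalization 1 rose and 2 fell. Car12, a membrane carbonic anhydrase, rose by 1.25 ± 0.26 (limma adjusted p = 0.0039). Car3, the muscle and fat carbonic anhydrase, gave -1.62 ± 0.24 (adjusted p = 0.000211), and Slc4a1, the red cell anion exchanger, -0.87 ± 0.19 (adjusted p = 0.00559; -0.34 and 0.0543 after quantile normalization). Clcn3, the endosomal relative of ClC-7, gave -0.70 ± 0.12 (adjusted p = 0.00128). As deposited, the anion exchanger Slc4a2 thus rose between the sets and the anion exchanger Slc4a1 fell.

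Genes of lysosome traffic to the ruffled border gave 3 of 11 that rose and 0 that fell (median 0.17), beside 8.93% and 9.01% of all genes. Snx10, a sorting nexin whose loss causes osteopetrosis in people, rose by 1.28 ± 0.14 (limma adjusted p = 1.01e-05), 1189 to 2197 in signal against 3121 to 4725. The calcium channel Mcoln1 at 0.39 ± 0.13 and the late endosome adaptor Plekhm1 at 0.36 ± 0.11 also passed, but lost their calls in 12 and 9 of 16 fits that left out 1 array, and without the 3 arrays whose spike-in controls were high 1 of the 11 rose. The small GTPase Rab27a at 0.49 ± 0.29 and the lysosomal membrane protein Lamp2 at -0.46 ± 0.16 differed more than Mcoln1 and Plekhm1 and were not called. Of the 14 lysosomal hydrolases 6 rose and 0 fell (median 0.36; 10 rose after quantile normalization and 4 with those 3 arrays left out), led by Gusb at 0.82 ± 0.14, Ctsz at 0.77 ± 0.18, Glb1 at 0.70 ± 0.17 and Gla at 0.55 ± 0.15.

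**Figure D4:**
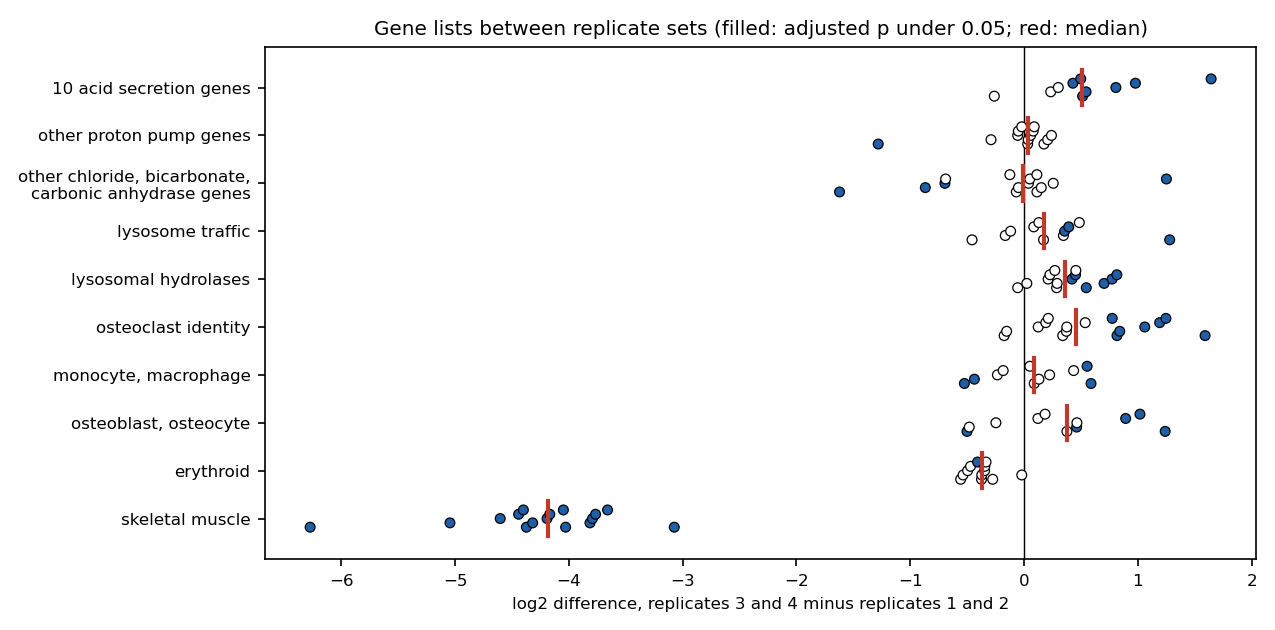
Log2 difference, replicates 3 and 4 minus replicates 1 and 2, of each gene tested in the acid-secretion group and 9 other lists, with each list's median as a red bar. The acid-secretion genes have a median of 0.51 and the other pump genes of 0.036, and the muscle genes lie lowest with a median of -4.18.

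For the estrogen comparisons 0 genes of the pump, chloride, traffic, hydrolase and osteoclast lists were called in either genotype. At an unadjusted p under 0.05 in wild type there were 0 of 13 pump genes, 1 of 14 chloride and bicarbonate genes, 1 of 11 traffic genes, 1 of 14 hydrolases and 0 of 16 osteoclast genes, beside 8.69% of all genes. These were the endosomal chloride transporter Clcn4 at -0.58 ± 0.16 (limma adjusted p = 0.257), Rab27a at 1.07 ± 0.45 (adjusted p = 0.504) and the alpha-galactosidase gene Gla at 0.72 ± 0.28 (adjusted p = 0.476). Of the pump genes the accessory protein Atp6ap2 had the largest wild-type difference, 0.39 ± 0.19 (adjusted p = 0.579). In knockout these lists had 0 genes with an unadjusted p under 0.05, beside 4.9% of all genes.

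A log2 ratio within each array showed whether the alternative d subunits changed unequally. The level of such a ratio depends on the probes and has no meaning by itself, so differences between arrays are compared. The ratio of Atp6v0d2 to Atp6v0d1 was -1.99, -1.99, -0.48 and -0.65 in wild-type vehicle, -2.21, -2.93, -1.51 and -1.29 in wild-type estrogen, -2.49, -2.22, -0.60 and -0.94 in knockout vehicle and -2.48, -1.69, -0.25 and -0.999 in knockout estrogen. Between the replicate sets it rose by 1.41 (two-sided exact permutation within groups, p = 0.00154, the smallest that the arrangements can give), and the ranges -2.93 to -1.69 and -1.51 to -0.25 did not overlap. The estrogen difference in this ratio was -0.71 for wild-type bone (exact permutation p = 0.229) and 0.21 for knockout (p = 0.714 by the same exact test over 70 arrangements). The responses differed by 0.92 (exact permutation p = 0.294, 4900 arrangements). These arrangements mix the replicate sets, between which the ratio differed. In wild type both estrogen arrays lay below both vehicle arrays in each set, and permuting within the sets gave p = 0.0556, the smallest its 36 exact arrangements can give; for knockout it gave an exact p of 0.444. For the difference between responses the exact permutation p within sets was 0.0293. Over the 10 such tests on both ratios, a choice made after seeing the data, the Benjamini-Hochberg values of these were 0.278 (wild type and the difference between responses) and 0.537 (knockout), all from exact permutation. Only 1444176_at of Atp6v0d2 entered the ratio. In wild-type replicates 1 and 2 its second probe set, 1434798_at, gave 950 and 553 under vehicle and 1018 and 635 after estrogen. The difference between responses was -0.020 ± 0.74 for 1434798_at alone, beside 0.49 ± 0.87 for 1444176_at. A ratio with 1434798_at was not tested, so the order and p-values above hold for 1444176_at.

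The ratio of Car2, which red cell precursors share, to Tcirg1 moved the other way. It fell by 0.76 between the replicate sets (exact permutation p = 0.00463), with overlapping ranges of 3.17 to 4.00 and 1.76 to 3.31. After quantile normalization Car2 was 0.13 and Tcirg1 0.52 higher in replicates 3 and 4, and the ratio was not tested on that scale. Wild-type estrogen replicate 3 had the lowest ratio of the 16 arrays. The estrogen difference was -0.52 for wild-type bone (exact permutation p = 0.343) and -0.18 for knockout (exact permutation p = 0.629), with exact p = 0.222 and 0.333 when permuted within the sets. Across the 12 tests that did not hold the sets apart for estrogen and genotype, the set differences were the only ones with p under 0.05; adjusted over the 12 by Benjamini-Hochberg they were 0.0185 and 0.0278.

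**Figure D5:**
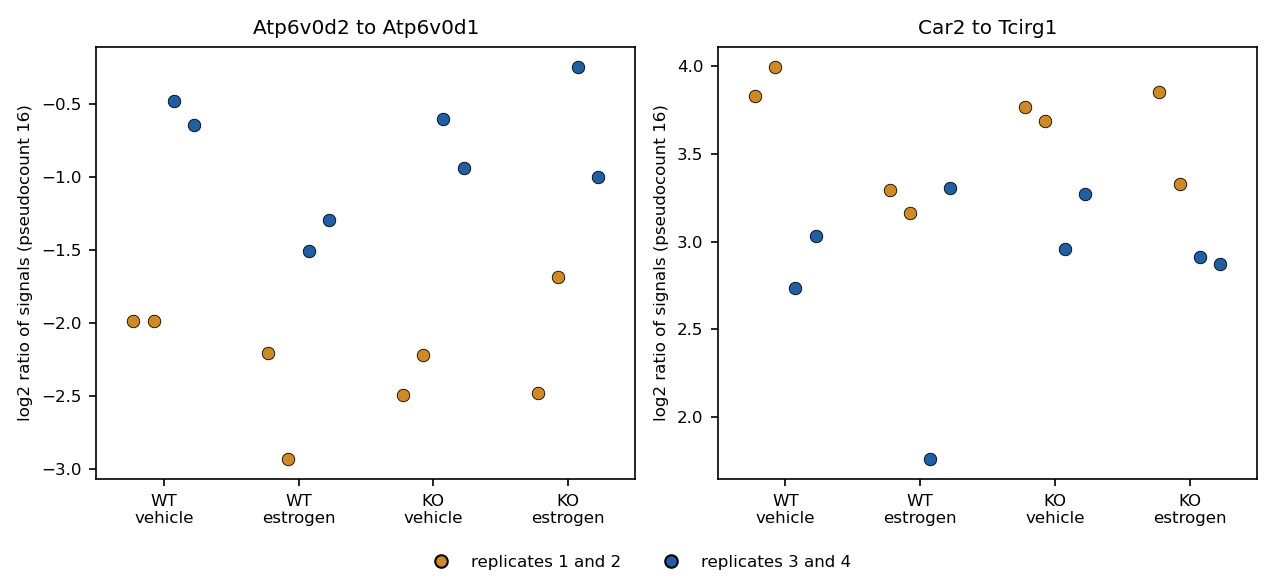
Log2 ratio within each array of Atp6v0d2 to Atp6v0d1 and of Car2 to Tcirg1, by group; orange points are replicates 1 and 2 and blue points replicates 3 and 4. For the first ratio all blue points lie above all orange points, -1.51 to -0.25 against -2.93 to -1.69.

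Some of the genes varied together among mice of a group and set, and others did not. Each array's deviation from the mean of its group and replicate set was used; since each such mean rests on a pair of arrays, the 16 deviations hold 8 independent values, and the correlations are descriptions. Atp6v1a went with Atp6v1b2 (Pearson r = 0.954), Tcirg1 (r = 0.91) and Ostm1 (r = 0.883), and Car2 opposed Ostm1 (r = -0.814). Wild-type estrogen replicates 3 and 4 lay far apart for these genes, and without that pair the values were 0.877, 0.742, 0.499 and 0.138, so the relation of Car2 with Ostm1 rested on it. Of the 45 pairs among the 10 genes, 32 had r above 0, and 31 without those arrays. The share over pairs of all genes was not computed, so these counts do not show whether the 10 genes were unusual. Clcn7 had r = -0.341 with Atp6v0d2, -0.294 with Atp6v0d1 and -0.292 with Slc4a2; without those arrays it had -0.852 with Atp6v0d1, -0.81 with Atp6v1b2, -0.805 with Atp6v1a and -0.615 with Tcirg1. Ostm1 had r = -0.026 with Slc4a2, and -0.543 with Atp6v1c1 once those arrays were left out. With Ctsk, Atp6v0d2 had r = 0.814 (0.909 without that pair), Atp6v0d1 r = 0.226 (0.105) and Car2 r = -0.453 (-0.131). All genes of an array share its RNA and its scaling.

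Of all genes tested, those whose log2 signal followed Atp6v0d2 most closely over the 16 arrays were Gask1b, Scd2, Slc36a2, Fat1 and Arsb (r = 0.954 to 0.972). For Tcirg1 they were P4hb, Ctsz, Jdp2, Ssr1 and Lrp10 (r = 0.918 to 0.958), for Clcn7 Rars2, Fbxw8, Slc35b1, Mrps23 and Spry4 (r = 0.792 to 0.841) and for Car2 Pigq, Mgll, Prdx2, Tspan33 and Ubac1 (r = 0.877 to 0.896). With the means of group and replicate set taken out, the nearest were Col9a2, Tmem167b, Ppm1e, Serinc5 and Col10a1 (r = 0.959 to 0.978) for Atp6v0d2 and Ube2d3, Zfp516, Nipa2, Esyt1 and Tm9sf3 (r = 0.941 to 0.95) for Tcirg1. Clcn7 then had Pald1, Cdk14, Vwa8, Adgrf5 and Frmd6 (r = 0.952 to 0.986), and Car2 Map2k5, Cldn13, A930009A15Rik, Sox6 and Ermap (r = 0.951 to 0.972). Ermap, in the Car2 group, is a red cell surface protein. The lists with the means taken out were not recomputed without wild-type estrogen replicates 3 and 4. Car2 signals of that pair lay far apart, at 13206.6 and 22284.5, and whether its r values rest on the pair was not tested. The highest r that chance would give among all genes tested was not computed, so the names are descriptions. For each of the 4 genes the lists before and after taking out the means shared 0 names.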

How the data were processed

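The deposited values are linear signal intensities of 45101 probe sets (64 of them controls) on 16 Affymetrix arrays, which the authors computed in GCOS, per the submitters' processing notes. The sources used here do not give its version or how background and probes were treated. The values show that each array was scaled to a 2% trimmed mean of 500. Here log2(intensity + 16) was taken, 1 probe set kept per gene (highest mean log2), the lowest 30% of genes left out (mean signal under 109.1), and 12735 of 18193 genes tested with limma 3.58.1 in R 4.3.3 (1 mean per group, eBayes with trend, Benjamini-Hochberg, threshold 0.05); the replicate-set comparison added a set term. The fit was tested on simulated data that had no replicate-set difference in the estrogen comparison, so that test does not cover the spread the sets add. Of 150 listed symbols 134 matched and 128 were tested. The members and lists, and the replicate-set split, were chosen with earlier results of these data known.

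All members are named in the estrogen and replicate-set comparisons. In the genotype comparisons and the difference between responses, Atp6v0d2, Atp6v0d1 and Tcirg1 are named throughout and the others only in part. From another list up to 4 genes of largest difference are named, plus every called gene where 5 or fewer passed. The nearest genes are the 5 of highest Pearson r. In some lists fewer are named. Leaving out single arrays for the log ratios, permuting them within replicate sets and the alternatives for genes of other lists were added after seeing the data. Same-numbered arrays of different groups correlated at 0.178 to 0.593 (24 pairs, deviations from group means), so the numbers were taken as pairing in an alternative fit, although other numbers of the same replicate set gave a median of 0.354 against 0.314.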

Additional observations from a re-analysis of the deposited data

Results flagged for a closer look

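In 3 of the 40 gene and group combinations examined 1 array stood far from the other 3 by Dixon's ratio, the gap to the nearest array over the group's whole range. Chance would give about 2 if all arrays of a group came from a single normal distribution. The replicate sets within each group differed for most of these genes, so the chance number here is not known. Tcirg1 was high in wild-type estrogen replicate 3 (signal 3891, ratio 0.869). Car2 was low on that same array (signal 13207, ratio 0.94). Clcn7 was low in wild-type vehicle replicate 1 (signal 523, ratio 0.838).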

How the results depend on the processing

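In the 5 estrogen and genotype comparisons 0 of the 10 genes were called under each of the 26 alternatives to the limma fit: pseudocounts, filters on low signals, quantile normalization, array weights, no variance trend, each array left out in turn, the 3 arrays of high spike-in controls left out, a replicate block and a replicate-set term. Between the replicate sets 5 to 9 of the 10 were called in 24 alternatives, and Atp6v0d2, Atp6v1a, Atp6v1b2, Atp6v1c1 and Slc4a2 were called in each. With array weights Clcn7 (0.45, adjusted p = 0.00905) and Car2 (-0.29, adjusted p = 0.0322) were called too. With the replicate block, which changed no member call, the smallest adjusted p of a member in the wild-type estrogen comparison was 0.413; 0 genes in all were called with it in these 5 comparisons, and 5, 1, 0, 0 and 0 with the replicate-set term. Uncalled values of members changed sign in some settings. Between the sets Col1a2 and Lyz2, called lower as deposited, also changed sign after quantile normalization and were then not called. The cause was not tested. Quantile normalization gave -0.022 (Atp6v1b2) and -0.0044 (Slc4a2) for estrogen in wild type and, between the sets, 0.13 (Car2), 0.14 (Col1a2) and 0.11 (Lyz2). Array weights gave, for estrogen in wild type, -0.29 (Atp6v1b2), -0.29 (Atp6v1a), -0.057 (Ostm1) and -0.34 (Slc4a2), in knockout 0.034 (Atp6v0d1), for knockout minus wild type under vehicle -0.043 (Atp6v0d1), -0.29 (Atp6v1b2, from 0.026) and 0.040 (Car2), and after estrogen 0.21 (Atp6v1a, from -0.22), 0.017 (Atp6v1c1) and 0.068 (Ostm1). For the difference between responses they gave 0.28 (Tcirg1), 0.67 (Atp6v1b2, from -0.0044), 0.69 (Atp6v1a, from -0.099), 0.30 (Atp6v1c1, from -0.15) and -0.028 (Car2), so that 4, 1, 3, 3 and 5 of the 10 changed sign in the 5 comparisons, and moved Atp6v0d2 without a change of sign from 0.49 to 1.81, its wild-type estrogen value from -0.37 to -1.17. Without the 3 arrays whose spike-in controls were high the values were -0.082 (Atp6v1b2), 0.011 (Clcn7) and -0.083 (Slc4a2) in wild type, 0.065 (Atp6v0d1) in knockout, -0.033 (Atp6v0d1) under vehicle and 0.082 (Tcirg1) between responses. With each array left out in turn, the log2 difference in wild type ranged over -0.18 to 0.21 (Atp6v1b2), -0.13 to 0.15 (Slc4a2), -0.087 to 0.43 (Atp6v1a), -0.10 to 0.19 (Ostm1), -0.24 to 0.11 (Clcn7) and -0.24 to 0.018 (Car2). In knockout it ranged over -0.28 to 0.65 (Atp6v0d2), -0.18 to 0.38 (Atp6v1b2), -0.052 to 0.41 (Atp6v1a), -0.15 to 0.030 (Car2), -0.23 to 0.065 (Atp6v0d1), -0.012 to 0.21 (Ostm1) and -0.037 to 0.36 (Atp6v1c1). Knockout minus wild type ranged under vehicle over -0.033 to 0.12 (Atp6v0d1), -0.56 to 0.074 (Atp6v0d2) and -0.20 to 0.092 (Tcirg1), and after estrogen over -0.13 to 0.80 (Atp6v0d2). The knockout estrogen difference in the Atp6v0d2 to Atp6v0d1 ratio ranged over -0.16 to 0.59. Permuted within the replicate sets, the difference of 0.92 between responses in that ratio had an exact permutation p of 0.0293 (0.278 adjusted over 10 tests), against 0.294 across sets. The number of arrays, 4 a group, limits the precision of every comparison.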
